A study of Danio rerio with 11 samples.

Results

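The genes foxa1, nr1h3 and rarga encode a forkhead factor, a liver X receptor and a retinoic acid receptor, and their transcripts were followed across 11 arrays of zebrafish larval liver. They are 3 of the 7792 genes named on the array, and each is read by 1 probe set, so no second probe set could be set beside it. They were taken by symbol from a list made with earlier results of these arrays known, and they are taken here as chosen by their measured difference between ahcy mutants and controls. That difference, and the one between mutants and azacytidine, which shares the mutant arrays, are therefore given as descriptions without a test. Azacytidine against control was tested, and it shares its control arrays with the comparison that chose the genes.

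The product of foxa1 is a forkhead protein, one of the pioneer factors that open chromatin at liver and gut genes before other factors bind. The product of nr1h3 is the liver X receptor alpha, a nuclear receptor switched on by oxysterols. It binds DNA together with a retinoid X receptor and raises genes for sterol export, lipoprotein handling and fatty acid synthesis in mammals. The product of rarga is a retinoic acid receptor of the gamma class, which also pairs with a retinoid X receptor and turns on genes such as the retinoic acid-degrading cyp26a1 when retinoic acid is bound. Liver takes up and stores retinol, so it holds both the supply of this ligand and the enzymes that clear it.

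Livers were dissected at 4 days after fertilisation. Control larvae (4 arrays) were ahcy +/+ and had vehicle injected into the yolk at 2 days. Azacytidine larvae (4 arrays) were also ahcy +/+ and received 1 mM azacytidine, a cytidine analogue that traps DNA methyltransferases after it enters DNA, in the same way. Mutant larvae (3 arrays) were ahcy -/- and received vehicle. The gene ahcy encodes the hydrolase that clears S-adenosylhomocysteine, the by-product and inhibitor of methylation by S-adenosylmethionine. The labels give neither the strain, the position of the ahcy mutation, nor whether livers were pooled or came from separate clutches, so the errors and p-values cover how far these samples differ, and that difference may be technical only. Arrays are named by group and by the sample number in their title.

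Values are the deposited log2 levels, and a log2 difference of 1 is a doubling. Differences carry a standard error from a limma fit over all 11 arrays. A probe set was called when its Benjamini-Hochberg adjusted p over 12784 probe sets was under 0.05. For azacytidine against control 0.579% of probe sets were called, for mutants against control 12.1%, and for mutants against azacytidine 29.4%. At an unadjusted p under 0.05 in limma, 669 of the 12784 probe sets were higher and 1270 lower with azacytidine. In mutants against controls 1947 were higher and 1446 lower. Counts at that unadjusted p below are to be read beside these. The array medians were 5.97 to 6.14 in controls, 5.89 to 5.97 with azacytidine and 6.13 to 6.17 in mutants. Centring the arrays on their medians moved the median of all differences between mutants and controls from 0.08 to -0.03. The calls were then 618 higher and 890 lower in place of 797 and 750. For mutants against azacytidine the median moved from 0.14 to -0.08 and the calls from 2329 higher and 1424 lower to 1629 and 2068. The ahcy transcript itself was at 12.11, 11.47 and 11.50 in mutants 3, 4 and 6, against 12.30 to 12.47 in the controls, and fell by 0.70 ± 0.16 (limma adjusted p = 0.017). The labels do not say whether the mutation affects the transcript, so this does not check the genotype.

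On all 11 arrays the 3 transcripts lay above the 10th percentile of their array, which ran from 4.11 to 4.51. In mutants foxa1 and nr1h3 were at lower levels than on any control or azacytidine array, and rarga was at higher levels than on any of them. With azacytidine no difference from control passed the test for any of the 3.

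The foxa1 level was 9.82, 9.50, 9.00 and 8.92 in controls 1, 2, 4 and 8. With azacytidine it was 9.11, 9.28, 9.30 and 9.04 on arrays 1, 2, 5 and 6. In mutants 3, 4 and 6 it was 7.97, 7.52 and 6.98. Controls 1 and 2 were the highest of all arrays, the azacytidine arrays lay inside the range of the controls, and mutant 6 was the lowest. The group means were 9.31 ± 0.43 (SD, n = 4), 9.18 ± 0.13 (SD, n = 4) and 7.49 ± 0.50 (SD, n = 3). The mutant level was thus 1.82 ± 0.29 below control on the log2 scale, a 3.53-fold difference, with a gap of 0.95 between the highest mutant and the lowest control.

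The nr1h3 level was 7.99, 7.86, 7.54 and 8.13 in controls 1, 2, 4 and 8. With azacytidine it was 8.26, 7.82, 7.53 and 7.64 on arrays 1, 2, 5 and 6. In mutants 3, 4 and 6 it was 6.17, 6.46 and 5.90. Azacytidine array 1 was the highest and mutant 6 again the lowest, and the control and azacytidine arrays were interleaved. The group means were 7.88 ± 0.25 (SD, n = 4), 7.81 ± 0.32 (SD, n = 4) and 6.18 ± 0.28 (SD, n = 3). The mutant level was 1.70 ± 0.26 below control, a 3.26-fold difference.

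The rarga level was 5.44, 5.71, 6.78 and 5.30 in controls 1, 2, 4 and 8. With azacytidine it was 5.04, 5.32, 5.15 and 5.17 on arrays 1, 2, 5 and 6. In mutants 3, 4 and 6 it was 7.44, 7.78 and 7.63. Control 4 stood well above the other controls, and the azacytidine arrays were all dim, at or below 5.32 and under the median of their array. Controls 1, 2 and 8 also lay under the median of their array, so most of the control baseline was dim as well. The group means were 5.81 ± 0.67 (SD, n = 4), 5.17 ± 0.12 (SD, n = 4) and 7.62 ± 0.17 (SD, n = 3). The mutant level was 1.81 ± 0.31 above control, a 3.50-fold difference, and the lowest mutant was 0.66 above control 4.

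**Figure D1:**
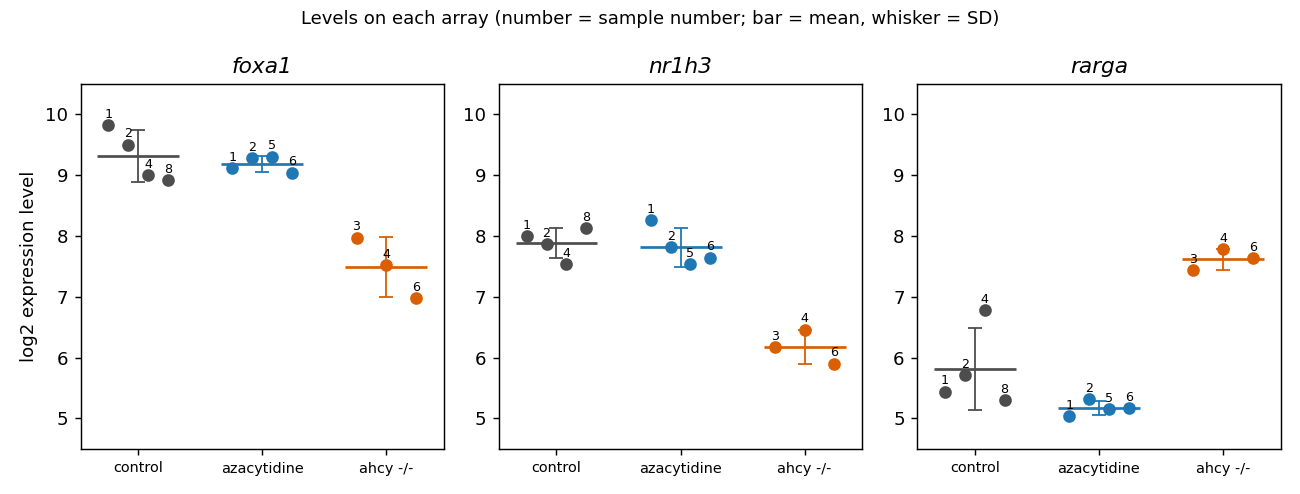
Log2 level (y axis) of foxa1, nr1h3 and rarga on each array, by group (x axis). Points are arrays with their sample number, horizontal bars are group means and whiskers are 1 SD. The mutant arrays lie below all others for foxa1 and nr1h3 and above all others for rarga, with control 4 at 6.78 between the rarga groups.

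Azacytidine against vehicle asked whether the drug shifted these regulators in wild-type liver. The foxa1 difference was -0.13 ± 0.27 (95% interval -0.72 to 0.47; limma adjusted p = 0.89). The nr1h3 difference was -0.07 ± 0.24 (95% interval -0.60 to 0.47; limma adjusted p = 0.94). A missed threshold does not show equal levels, and both values moved when marker genes of other cell types were taken into account. With 1 covariate built from muscle, epidermis and neural marker means, foxa1 was at -0.83 ± 0.31 and nr1h3 at -0.32 ± 0.36 (limma adjusted p = 0.57 and 0.93). Relative to the mean of the hepatocyte markers on the same array they were at -0.61 ± 0.32 and -0.55 ± 0.32 (adjusted p = 0.20 and 0.23). That marker mean was 0.48 above control with azacytidine, which lowers every gene's difference by that amount. The sign of the nr1h3 estimate turned when arrays were rescaled or without control 8 or azacytidine 5, and that of foxa1 turned without control 1. The rarga difference was -0.64 ± 0.29 (95% interval -1.27 to -0.0088; unadjusted p = 0.047; limma adjusted p = 0.32), and its ranges overlapped through azacytidine array 2 and control 8. Without control 4 it was -0.31, with the marker covariate -0.17 ± 0.40 and relative to the hepatocyte markers -1.12 ± 0.38 (limma adjusted p = 0.97 and 0.083 in the last 2). In limma 0 of the 3 genes were called, against 0.399% of all probe sets called higher and 0.18% lower, and 1 (rarga) had an unadjusted p under 0.05. At that unadjusted p 669 of the 12784 probe sets were higher and 1270 lower with azacytidine. None of the 3 genes was without overlap between these groups, while 8.96% of probe sets were (3.71% higher and 5.26% lower with azacytidine).

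In mutants against controls the groups did not overlap for any of the 3 genes, and all 3 were called. Of all probe sets 22.5% had no overlap (12% higher and 10.6% lower in mutants) and 12.1% were called. Since these values chose the genes, nothing is read from that count. When each array was left out in turn, the differences stayed between -2.06 and -1.56 for foxa1, between -1.85 and -1.56 for nr1h3 and between 1.64 and 2.13 for rarga. Against azacytidine, which shares these mutant arrays, foxa1 was 1.69 ± 0.29 below, nr1h3 1.64 ± 0.26 below and rarga 2.45 ± 0.31 above on the log2 scale. All 3 were again without overlap, as were 37.3% of all probe sets (23.5% higher and 13.8% lower in mutants). The calls there were 18.2% higher and 11.1% lower over all probe sets. The rarga gap between the groups was 2.12 against azacytidine and 0.66 against controls.

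Marker genes of several cell types moved with the mutant group on the same arrays. The mean level of 18 hepatocyte markers was 11.45 to 11.76 in controls, 11.98 to 12.22 with azacytidine and 9.51 to 10.53 in mutants, lowest in mutant 6, the array that was also lowest for foxa1 and nr1h3. In limma 12 of these 18 markers (66.7%) fell in mutants and 0 rose, where 5.87% of all probe sets were called lower. In bulk tissue, fewer hepatocytes and less RNA per hepatocyte cannot be told apart. Measured against the mean of the hepatocyte markers on the same array, a comparison added after the data were seen, the foxa1 difference between mutants and controls was -0.42 ± 0.34 and that of nr1h3 was -0.30 ± 0.34. On that relative scale foxa1 was between -2.84 and -1.74 in controls and between -3.01 and -2.47 in mutants, and nr1h3 was between -3.91 and -3.57 in controls and between -4.27 and -3.61 in mutants. The groups overlapped for both genes. The azacytidine arrays lay between -2.94 and -2.69 for foxa1 and between -4.46 and -3.72 for nr1h3. Against azacytidine the relative differences of the mutants turned positive, at 0.19 ± 0.34 for foxa1 and 0.25 ± 0.34 for nr1h3.

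For rarga the same relative scale gave a difference of 3.21 ± 0.41. The hepatocyte marker mean was lower in mutants, which raises every gene's difference by the same amount, those of foxa1 and nr1h3 included. The wider value is therefore built into the scale and is not particular to rarga. Markers of epidermis, skeletal muscle and connective tissue were higher on the same mutant arrays. The mean of 24 epidermis markers was 7.77 to 8.26 in controls, 6.72 to 7.68 with azacytidine and 9.14 to 10.03 in mutants, with 15 of 24 called higher in mutants by limma and 0 lower. That of 23 skeletal muscle markers was 8.23 to 9.18, 7.69 to 8.40 and 9.90 to 10.49, with 14 called higher. That of 11 fin, cartilage and connective tissue markers was 6.10 to 7.45, 5.43 to 7.30 and 8.35 to 10.18, with 6 called higher. Over all probe sets 6.23% were called higher and 5.87% lower in mutants against controls. None of these 3 lists had a marker below the 10th percentile on every mutant array. Other lists also had higher means in mutants. The mean of 8 biliary markers was 8.725 to 9.155 in controls and 9.28 to 9.35 in mutants, with 1 called higher and 0 lower. That of 15 leukocyte markers was 0.70 above control, with 3 called higher and 1 lower. It was also 0.74 above control with azacytidine. That of 9 endothelial and blood markers was 0.49 above control in mutants, with 0 called. Exocrine pancreas and intestine markers were not higher as a group. The mean of 16 exocrine pancreas markers was 5.45 to 9.91 in controls and 4.98 to 6.09 in mutants, with 1 (6.25%) called lower. That of 10 intestine markers was 7.24 to 8.83 and 7.47 to 8.38, with 1 (10%) called higher. The mean of 24 neural markers was 8.26 in control 4, the control with the highest rarga level, against 5.56 to 7.32 in the other controls, 5.18 to 5.52 with azacytidine and 6.73 to 7.60 in mutants. Control 8 had the lowest rarga level of the controls, at 5.30, and a neural mean of 7.32, inside the range of the mutants. It also had the highest control means of epidermis, skeletal muscle and connective tissue markers, at 8.26, 9.18 and 7.45. In limma 0 of the 24 neural markers were called in mutants against controls, and 0 had an unadjusted p under 0.05. With azacytidine 1 of them was called lower and 18 were lower at an unadjusted p under 0.05, in the group with the lowest mean rarga level. Of all 12784 probe sets 1270 were lower with azacytidine at that p, and 0.18% were called lower.

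The fit with the marker covariate brought these values closer to 0. The differences between mutants and controls were then -0.97 ± 0.36 for foxa1, -1.40 ± 0.42 for nr1h3 and 1.25 ± 0.46 for rarga, all in the same direction as before. Against azacytidine they were -0.14 ± 0.56, -1.09 ± 0.65 and 1.43 ± 0.72. Over the whole array that fit called 71 probe sets in place of 1547, and its covariate moves with the groups. RNA quality was read from the array's controls for acta1, a muscle actin gene. Their 3' minus 5' difference was 5.59 to 6.21 in mutants, 3.16 to 4.92 in controls and 1.88 to 4.02 with azacytidine. The 3' minus middle difference ran the other way, at 1.80 to 2.89 in mutants, 2.76 to 3.92 in controls and 3.48 to 3.8 with azacytidine. Muscle markers were higher on the same mutant arrays, so RNA quality and muscle content cannot be told apart in these differences. The part of marker levels beyond these fits, and of these actin differences, in the results was not tested.

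**Figure D2:**
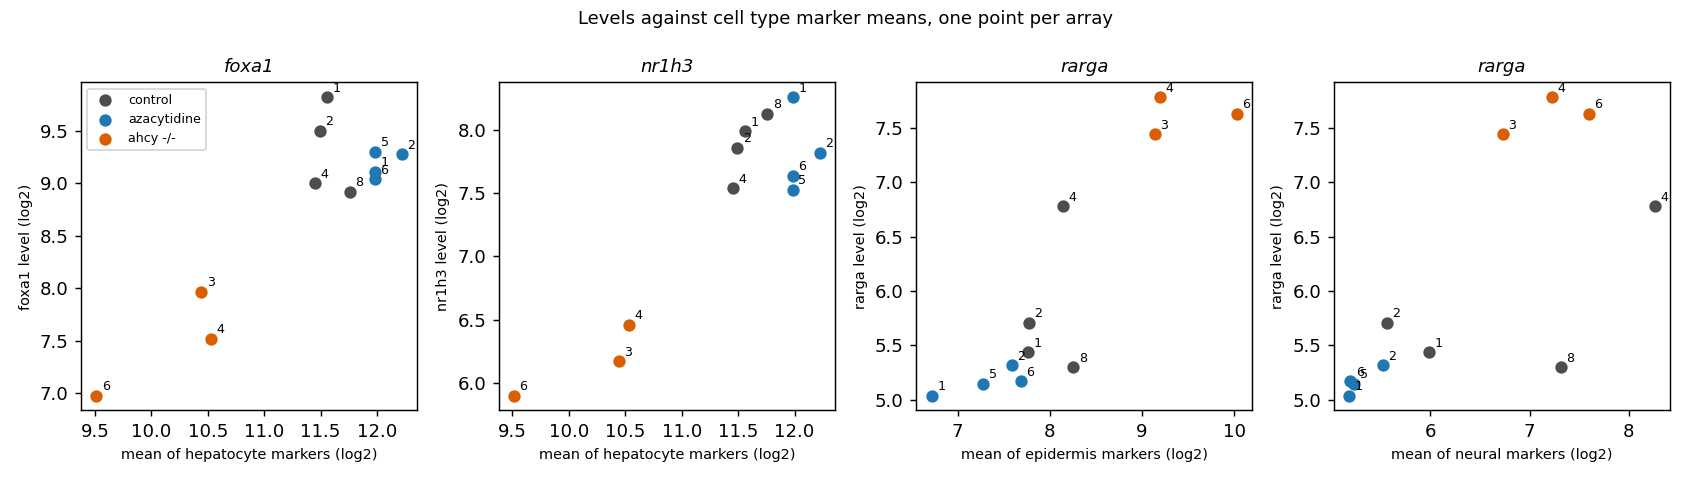
Log2 level of foxa1 and nr1h3 against the mean of the hepatocyte markers, and of rarga against the means of the epidermis and neural markers, with 1 point per array, coloured by group and labelled with the sample number. Mutant 6 is lowest on both axes for foxa1 and nr1h3, and control 4 has the highest neural mean of all arrays, at 8.26, with rarga at 6.78. Control 8 is at a neural mean of 7.32 with rarga at 5.30.

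Close relatives and receptor partners were read next, to see whether the 3 genes moved alone within their families. The other measured foxa genes, which share the forkhead domain, were not called in mutants against controls. These were foxa2 (-0.73 ± 0.41, limma adjusted p = 0.29), foxa3 (-0.51 ± 0.53, adjusted p = 0.60) and foxa (0.41 ± 0.36, adjusted p = 0.52). Their levels overlapped between mutants and controls, and in limma 0 of the 3 had an unadjusted p under 0.05. Against azacytidine foxa2, foxa3 and foxa differed by -0.94 ± 0.41, -0.84 ± 0.53 and 0.66 ± 0.36 (limma adjusted p = 0.11, 0.26 and 0.19). For foxa2 all mutants lay below all azacytidine arrays, as for 13.8% of all probe sets. With centring, quantile normalisation, array weights or a 2-group fit, 1 of the 3 was called lower there. The bile acid receptor relative nr1h5 was at 8.16 ± 0.54 in controls (SD, n = 4) and 7.03 ± 0.94 in mutants (SD, n = 3), a difference of -1.14 ± 0.46 that missed the threshold (limma adjusted p = 0.13). It was -0.64 without mutant 6 and -1.56 without mutant 3, and with array weights it passed (-1.45, adjusted p = 0.043). With azacytidine it was at 9.06 ± 0.54 (SD, n = 4), and between mutants and azacytidine it fell by 2.03 ± 0.46 on the log2 scale (limma adjusted p = 0.0066). The differences between each gene and its relatives were not tested.

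Of 5 other measured retinoic acid and retinoid X receptor genes 1 rose and 0 fell in mutants against controls, where 12.1% of all probe sets were called either way. That count became 0 higher and 1 lower with cyclic loess, with array weights or without mutant 3, where rxrba was not called and rxrga was. The alpha-class genes raraa and rarab differed by 0.07 ± 0.38 and 0.0067 ± 0.28 (limma adjusted p = 0.94 and 0.99), with signs that turned when arrays were rescaled. The retinoid X receptors, the obligate partners of both nr1h3 and rarga products, were read gene by gene, and differences between them were not tested. The rxrba level was 4.82, 4.34, 4.48 and 4.37 in the controls and 6.13, 5.20 and 5.09 in the mutants, and rose by 0.97 ± 0.28 (limma adjusted p = 0.042). Control levels of rxrba are near the 10th percentile of the arrays. Its call was lost in 9 of the 11 fits that left out an array (controls 1, 2, 4 and 8, azacytidine 1 and 5, and each mutant), and under each rescaling of the arrays. The rxrga difference was -0.58 ± 0.21 (limma adjusted p = 0.096) and that of rxrab was 0.00083 ± 0.20 (adjusted p = 0.999), which turned negative when arrays were rescaled. Against azacytidine rxrga fell by 0.91 ± 0.21 (limma adjusted p = 0.0081).

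**Figure D3:**
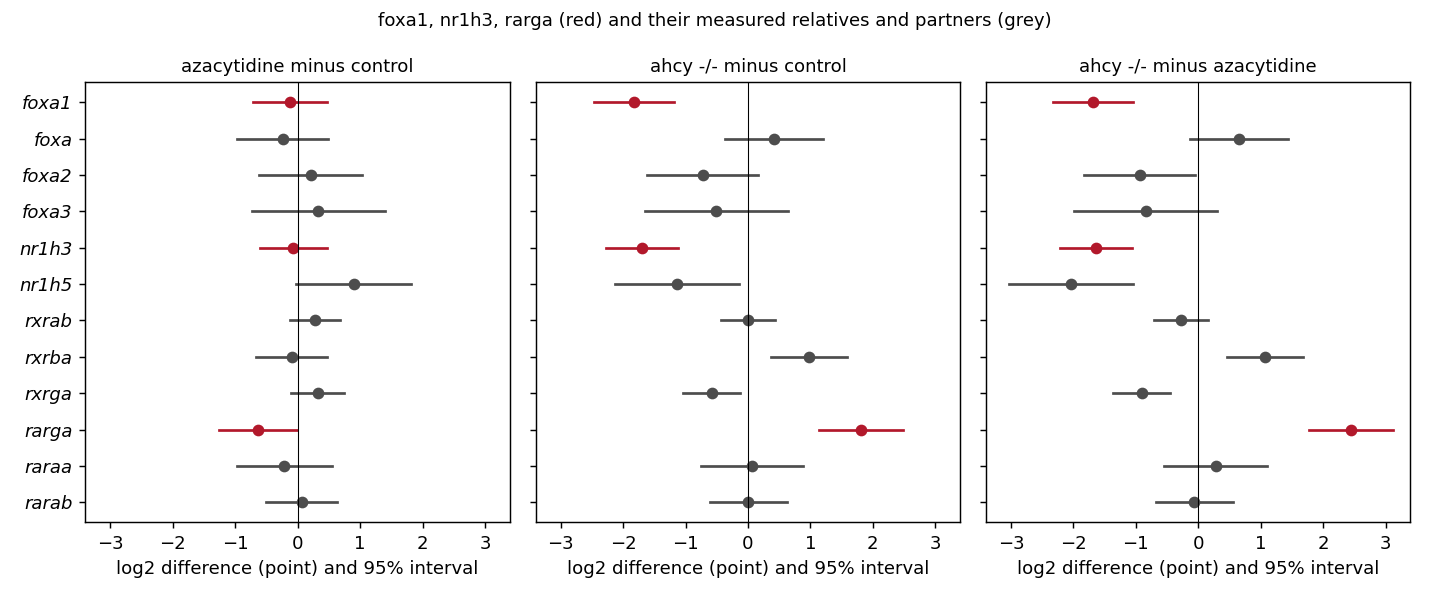
Log2 differences (points) with 95% intervals (lines) for foxa1, nr1h3 and rarga in red and their measured relatives and partners in grey, in the 3 comparisons. With azacytidine against control foxa1 and nr1h3 are at -0.13 and -0.07, and rarga is at -0.64 with an interval from -1.27 to -0.0088. None of the 3 was called there. In mutants against controls foxa1 and nr1h3 are at -1.82 and -1.70 and rarga at 1.81.

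The wider set of liver transcription factors, without the 3 genes, held 30 measured genes. In limma 3 of them (10%) fell in mutants against controls and 0 rose, near the background of 12.1% for calls either way, with a median of 0.02 against 0.08 over all probe sets. At an unadjusted p under 0.05 there were 3 higher and 5 lower, beside 1947 higher and 1446 lower of all 12784 probe sets. The genes that fell were nr5a2, a nuclear receptor of bile acid and cholesterol metabolism (-1.66 ± 0.40, adjusted p = 0.019), hnf4b (-1.43 ± 0.35, adjusted p = 0.021) and hnf4a (-0.93 ± 0.27, adjusted p = 0.046), which encode hepatocyte nuclear factor 4 receptors. The 3 calls were fewer in most fits without 1 array: 0 without control 1, mutant 4 or mutant 6, 1 without control 2 and 2 without any one of the azacytidine arrays. The hnf4a call was lost in 9 of those 11 fits. A fit of only mutants and controls gave 0 as well. Genes with no call included the liver regulators prox1a, hhex, cebpa and xbp1, named after their values were seen, at -0.32, -1.12, 0.35 and 0.17. The hhex estimate was larger in size than the -0.93 of the called hnf4a, so a missing call does not show an unchanged level. With azacytidine 0 of 30 were called, and 2 were lower and 0 higher at an unadjusted p under 0.05. Of all 12784 probe sets 1270 were lower and 669 higher there.

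Hepatocyte genes known as targets of FoxA proteins in mammals were measured for 25 of 37 listed. In limma 15 (60.0%) fell in mutants and 0 rose, where 5.87% of all probe sets were called lower, with a median of -0.84. The 4 with the smallest p were ahsg1, which encodes fetuin (-4.24 ± 0.33), tdo2a, the tryptophan dioxygenase gene (-5.12 ± 0.43), igfbp1b (-4.71 ± 0.48), which encodes a growth factor binding protein, and the protease inhibitor gene serpina1l (-0.84 ± 0.09). Their adjusted p lay between 2.5e-05 and 0.00018. Of the 25 genes 13 are also hepatocyte markers, a list in which 12 of 18 (66.7%) fell, with a median of -1.18. Since 13 of those 18 markers are FoxA targets themselves, this cannot show whether the fall is particular to the targets. Among the other 12 targets, 7 fell, with a median of -1.28. With the marker covariate 3 of the 25 were called lower, beside 64 of all 12784 probe sets. With azacytidine, where foxa1 was not called, 2 of these genes rose, ahsg1 by 1.87 ± 0.31 (adjusted p = 0.019) and the heme carrier gene hpxb by 2.04 ± 0.37 (adjusted p = 0.031). Both calls were lost without control 4, azacytidine 2 or azacytidine 5, and that of hpxb also without control 8 or azacytidine 6. Of all probe sets 0.399% were called higher with azacytidine. At an unadjusted p under 0.05 in limma, 8 of the 25 were higher and 0 lower with the drug. Of all 12784 probe sets 669 were higher and 1270 lower at that p.

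Genes reported as liver X receptor targets in mammals went both ways. Of 13 measured, 3 fell and 1 rose in mutants, where 5.87% of all probe sets fell and 6.23% rose, with a median of -0.38. The lipoprotein lipase gene lpla was at 10.48, 10.04, 10.15 and 9.60 in the controls and at 7.96, 8.20 and 7.58 in the mutants, and fell by 2.15 ± 0.26 (limma adjusted p = 0.00041). All 3 mutants were below all controls. The phospholipid-remodelling gene lpcat3 fell by 1.82 ± 0.39 and the apolipoprotein gene apoc1 by 0.87 ± 0.15 (adjusted p = 0.011 and 0.0036). The gene mylipa, whose product marks the LDL receptor for breakdown, rose by 1.48 ± 0.34 (adjusted p = 0.016), opposite in direction to nr1h3. The mylipa call was lost without mutant 4 or mutant 6. The lpcat3 call was also lost without mutant 6, which left 2 calls in the list. With azacytidine apoc4 rose by 1.75 ± 0.31 (limma adjusted p = 0.028), a call lost without control 4 or azacytidine 2, 5 or 6. It was the 1 call among the 13 there, where 0.399% of all probe sets were called higher.

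Of 7 measured partners of the receptor and enzymes that make or clear its oxysterol ligands, 2 rose and 1 fell in mutants, against 12.1% called either way over all probe sets. Rescaling turned that balance, with 1 higher and 3 lower with cyclic loess and 1 higher and 2 lower with centring or quantile normalisation, and array weights gave 1 higher and 3 lower. The cholesterol 25-hydroxylase-like gene ch25hl1.1 rose by 3.09 ± 0.43 (limma adjusted p = 0.0011). Its controls lay at 5.34 to 6.84 and its mutants at 8.81 to 9.45, and it kept its call without any single array. The other gene to rise was rxrba, above. The sterol 27-hydroxylase gene cyp27a1.1 fell by 1.28 ± 0.32 (adjusted p = 0.024), a call lost without controls 1 or 2 or mutants 3 or 4, and its mutant levels overlapped the controls. Without control 1, control 2 or mutant 4, ch25hl1.1 was the 1 call left in this list. With azacytidine 0 of 7 were called, and 1 was higher at an unadjusted p under 0.05.

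Retinoid genes were split by role. Of 25 measured genes for retinoid supply, carriage and breakdown, 5 fell and 1 rose in mutants (24% called, against 12.1% of all probe sets), with a median of -0.31. The retinol-handling dehydrogenase genes dhrs9 and rdh1 fell by 2.65 ± 0.20 and 3.85 ± 0.59 (limma adjusted p = 2.4e-05 and 0.0019). The gene stra6l, whose product takes up retinol from its blood carrier, was at 6.51 to 6.65 in controls and at 4.14, 4.48 and 4.03 in mutants, and fell by 2.34 ± 0.24 (adjusted p = 0.00015). Mutants 3 and 6 lay below the 10th percentile of their arrays for stra6l, so the size of that fall is uncertain. With azacytidine stra6l was at 6.80 to 7.61, above all controls, a difference of 0.73 ± 0.22 that missed the threshold (adjusted p = 0.14). The alcohol dehydrogenase gene adh5 fell by 0.68 ± 0.12 (adjusted p = 0.0047). The aldehyde dehydrogenase gene aldh8a1, the last of the 5 and named after its value was seen, fell by 2.09 ± 0.43 (adjusted p = 0.0092). Calls for dhrs9, rdh1, stra6l and adh5 held without any single array.

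The gene that rose in that list was cyp26a1, which encodes the main retinoic acid-degrading enzyme and is a classical target of retinoic acid receptors. It was at 4.31, 6.81, 6.22 and 5.56 in the controls, at 4.56 to 4.88 with azacytidine and at 6.57, 8.28 and 8.36 in the mutants. Control 2 lay above mutant 3, so the groups overlapped although the difference of 2.01 ± 0.54 was called (limma adjusted p = 0.033). The call was lost without controls 1 or 8 or mutants 4 or 6. Of 23 measured retinoic acid targets, cyp26a1 included, 5 (21.7%) rose and 0 fell in mutants, where 6.23% of all probe sets were called higher, and the median was 0.43. The others were the homeobox genes meis1b (1.29 ± 0.29, adjusted p = 0.013) and pbx1a (1.76 ± 0.50, adjusted p = 0.041), the transglutaminase gene tgm2b (1.61 ± 0.41, adjusted p = 0.026) and the Hox gene hoxd4a (1.92 ± 0.55, adjusted p = 0.043), which was named after its value was seen. The count was 0 without mutant 4 or mutant 6, 1 without control 1, 2 without control 2, 3 without azacytidine 1, 2 or 5, 1 in a fit of only mutants and controls, and 0 with the marker covariate. The covariate fit called 7 of all 12784 probe sets higher. With cyclic loess 3 were higher and 1 lower. With azacytidine 0 of 23 were called, and 1 was higher and 4 lower at an unadjusted p under 0.05. Epidermis, muscle and connective tissue markers rose on the same mutant arrays, as given above. For pbx1a control 2, at 4.16, lay below the 10th percentile of its array, so the size of that rise is uncertain.

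The larger protein families were read in the same way. Of 35 other nuclear receptor genes measured, 4 (hnf4a, hnf4b, nr5a2 and nr5a5) fell and 1 (rxrba) rose in mutants, 14.3% against the background of 12.1%. The nr5a5 level was 5.71 to 7.31 in controls and 3.65, 3.60 and 3.04 in mutants, a fall called by limma (adjusted p = 0.00038) also without any single array. All 3 mutant levels were below the 10th percentile of their arrays, so no size is given for it. The family count was 1 lower and 0 higher without control 1, mutant 4 or mutant 6, and 2 lower and 0 higher without control 2. Of 21 other forkhead genes 3 (14.3%) rose and 0 fell, where 6.23% of all probe sets were called higher and 12.1% either way. The 3 were foxp1a (1.06 ± 0.25, limma adjusted p = 0.018), foxc1b (1.05 ± 0.25, adjusted p = 0.019) and foxc1a (1.33 ± 0.36, adjusted p = 0.032). Without control 2 or mutant 4 no forkhead gene was called, and without mutant 6 there was 1. The foxc1 genes are known for roles in mesoderm and vessels. With the marker covariate 0 genes were called among the liver X receptor targets, the receptor partners and oxysterol enzymes, the nuclear receptors and the forkhead genes, and 2 retinoid supply genes were called lower. That fit called only 7 higher and 64 lower of all 12784 probe sets, so 0 calls in such short lists is near its background. With azacytidine 0 of the 35 and 0 of the 21 were called by limma, while 3 nuclear receptor genes were lower, and 2 forkhead genes higher and 3 lower, at an unadjusted p under 0.05.

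**Figure D4:**
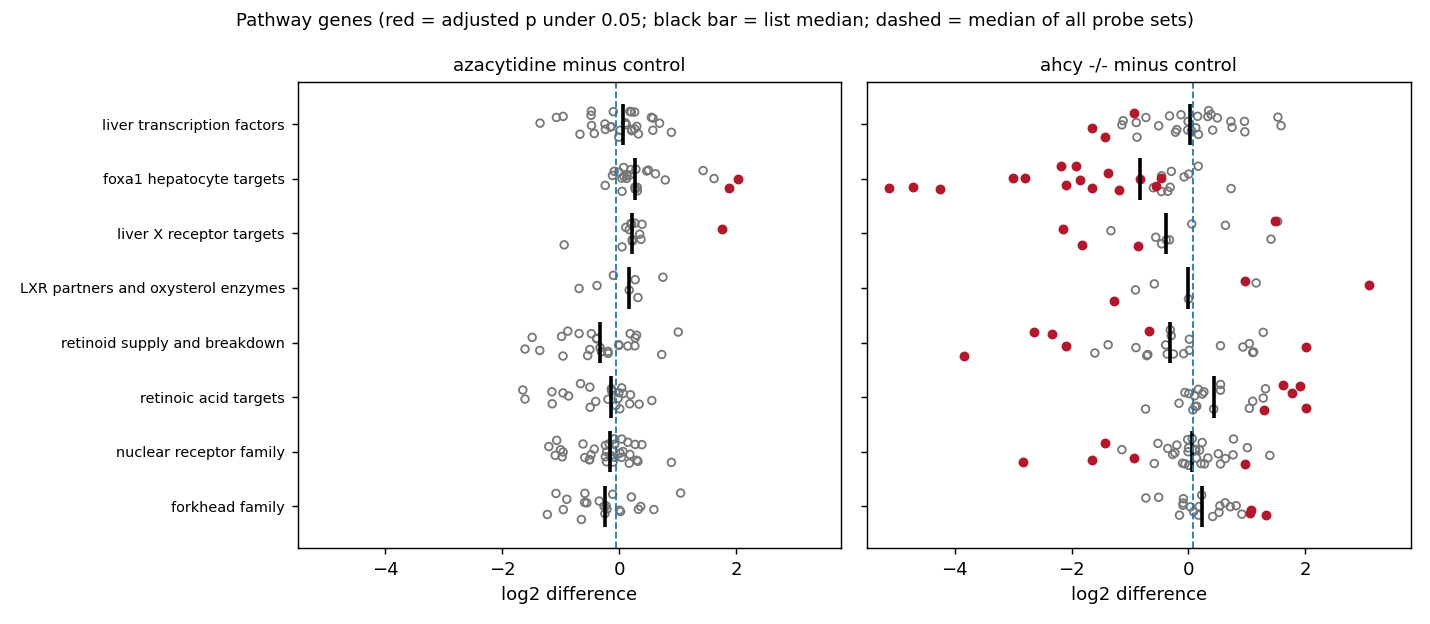
Log2 differences of single genes (circles) in 8 pathway and family lists, without foxa1, nr1h3 and rarga, for azacytidine minus control and for mutants minus control. Red circles passed limma's adjusted p of 0.05, black bars are list medians and the dashed line is the median of all probe sets. The list of FoxA targets has its median at -0.84 in mutants, and the retinoic acid targets at 0.43.

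Mutants against azacytidine gave more calls in these lists, over a background of 29.4%. Of the 25 FoxA targets 20 were lower and 0 higher. Of 13 liver X receptor targets 7 were lower and 2 higher, and of 23 retinoic acid targets 9 were higher and 1 lower. The mutant arrays are shared with the comparison above, so these counts are not separate evidence. The cyp26b1 gene, which encodes another retinoic acid-degrading enzyme, shows how the groups lay. Controls lay at 7.56 to 8.93, azacytidine arrays at 5.95 to 7.75 and mutants at 9.29 to 10.10. Neither difference from control passed (limma adjusted p = 0.095 and 0.076), and that of 2.89 ± 0.43 between mutants and azacytidine did (adjusted p = 0.00074).

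Genes with the most similar pattern were ranked by Pearson's correlation of log2 levels over the 11 arrays, among 7417 named probe sets with a mean level of at least 5. Nearest to foxa1 were the opsin-family gene rgrb (0.986), the protease inhibitor gene serpina10b (0.985) and tusc2b (0.977). The serpina10b mean was 9.47 in controls, 9.42 with azacytidine and 5.99 in mutants. Nearest to nr1h3 were the kynurenine pathway gene kmo (0.984), the peroxisomal lyase gene hacl1 (0.980) and the mitochondrial fatty acid oxidation gene echs1 (0.973). The kmo mean was 8.58, 8.43 and 5.83 in the 3 groups. Nearest to rarga were the zinc finger gene casz1 (0.982), the RNA-binding gene serbp1b (0.959) and lysmd2 (0.951), and the casz1 mean was 5.76, 5.02 and 7.30. The mutants lie apart from the other 8 arrays for each of the 3 members, and the arrays also share their marker differences, so these values are descriptions.

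Within groups the order changed. When each array was taken as its deviation from its group mean, the nearest genes were asb3 (0.925), fam114a2 (0.918) and elf3 (0.915) for foxa1, pigs (0.881), hacl1 (0.858) and mtdha (0.846) for nr1h3, and smarce1 (0.953), zc2hc1a (0.928) and ing4 (0.926) for rarga. The hacl1 gene appeared under both measures for nr1h3. Its probe set carries a name that marks possible sharing of probes with other transcripts. For rarga, control 4 had the largest deviation.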

How the data were processed

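Liver RNA from 11 samples was amplified in 2 rounds and read on Affymetrix arrays, per the labels. The labels name both biotin and Cy3 as the dye or tag, and the arrays were treated as 1-colour. The deposited values are log2 levels per probe set, which the authors computed with GCRMA and Partek. Both tools are credited to the submitters' processing notes and carry no version there. GCRMA background correction and normalisation leave low levels uncertain. The table held 12830 probe sets. Leaving out 46 array controls left 12784, with no further filter. Names came from the platform annotation (8994 probe sets with 1 symbol, 110 with several, 3680 with none). The table held 0 columns of other samples.

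All arrays entered 1 limma 3.58.1 model (R 4.3.3) of 3 group means, with 8 residual degrees of freedom and a variance trend, tested 2-sided with Benjamini-Hochberg adjustment. The number of arrays limits the precision. The code was tested on simulated data. The members and gene lists were chosen with earlier results of these data known. For lists, the probe set with the highest mean stood for a gene. Named genes are the 3 members, their measured relatives, the 3 nearest genes per member under 2 measures, and up to 4 called genes per list and direction by smallest p, or the largest difference where none was called. Alternatives were other variance priors, filters, rescalings, array weights, 2-group fits, a replicate block, a marker covariate, averaged probe sets and leaving out each array. No sequences were used here.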

Additional observations from a re-analysis of the deposited data

Results flagged for a closer look

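In 88 groups of 4 arrays, from 44 named genes in the control and azacytidine groups, 3 had 1 array far from the other 3. Chance alone gives about 1 such group in 20. For hnf4b, control 4 was at 7.93 while the remaining controls lay at 8.72 to 8.88. The apoc1 level was 13.39 in azacytidine 5, against 13.54 to 13.57 on the other azacytidine arrays. The level of nr4a2b, the nuclear receptor gene with the largest uncalled azacytidine difference in its family, was 3.64 in control 1, with the remaining controls at 5.13 to 5.23. Control 1 and all 4 azacytidine arrays were below the 10th percentile of their arrays for nr4a2b, so neither that distance nor its azacytidine difference has a reliable size. No array of foxa1, nr1h3 or rarga stood apart by this measure.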

How the results depend on the processing

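Variance priors, filters on dim probe sets and fits of only the groups compared leave a gene's difference of group means as it was. They therefore cannot test the direction of the differences of foxa1, nr1h3 and rarga. The nr1h3 difference with azacytidine turned to 0.039 with cyclic loess, 0.035 with centring and 0.074 with quantile normalisation, and ran from -0.22 to 0.027 when each array was left out. That of foxa1 ran from -0.26 to 0.042. Over all alternatives the azacytidine difference ran from -0.83 to 0.042 for foxa1, from -0.55 to 0.074 for nr1h3 and from -1.12 to -0.17 for rarga, with the covariate or the hepatocyte-relative level at the ends away from 0 for foxa1 and nr1h3 and at both ends for rarga. With the marker covariate the differences between mutants and controls were -0.97, -1.40 and 1.25 for foxa1, nr1h3 and rarga, and between mutants and azacytidine -0.14, -1.09 and 1.43. Relative to the hepatocyte markers, chosen after seeing the data, they were -0.42, -0.30 and 3.21, and against azacytidine 0.19, 0.25 and 4.33. The hepatocyte-relative shifts equal the change of the marker mean and are the same for every gene. The cause of the other shifts was not tested.

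Over all probe sets azacytidine gave 74 calls, against 120 with cyclic loess, 124 with centring, 125 with quantile normalisation, 227 with array weights and 4 with the covariate. The covariate left 71 calls for mutants against controls and 6 for mutants against azacytidine. Leaving out an array gave 32 to 153, 756 to 1688 and 2320 to 3919 calls in the 3 comparisons, the lowest without control 4 for the first and without mutant 6 for the others. Over the pathway lists 3, 39 and 70 genes were called, and the covariate left 0, 5 and 1. Array weights gave 5 for azacytidine. Leaving out an array gave 0 to 4 for azacytidine and 22 to 43 for mutants against controls, with 0 without control 4, azacytidine 2 or azacytidine 5.

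Several small differences changed sign. With azacytidine the covariate gave 0.10 for foxa, -0.71 for foxa3, -0.11 for nr1h5, -0.20 for rarab, -0.068 for rxrga, 0.041 for meis2a and 0.90 for foxg1b. Array weights gave -0.072 for rarab. For rxrba centring gave 0.0050 and quantile normalisation 0.026. In mutants against controls the covariate gave 0.74 for foxa3 and 0.067 for nr1h5. Cyclic loess, centring and quantile normalisation gave -0.025, -0.050 and -0.058 for raraa, -0.11, -0.11 and -0.10 for rarab, and -0.16, -0.11 and -0.10 for rxrab, and array weights gave -0.11 for rarab and -0.12 for rxrab. Leaving out an array gave -0.042 to 0.47 for foxa2, -0.10 to 0.62 for foxa3, -0.14 to 0.19 for rarab and -0.22 to 0.068 for rxrba with azacytidine. In mutants it gave -0.09 to 0.27 for raraa, -0.19 to 0.15 for rarab and -0.18 to 0.10 for rxrab.

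The 4 pairs of samples with the same number in different groups had correlations of deviations from -0.206 to 0.0307. So few pairs cannot show whether a shared number means a shared clutch or batch. With the number as a replicate block the member differences were -0.13, -0.06 and -0.63 with azacytidine, -1.82, -1.69 and 1.80 in mutants against controls, and -1.69, -1.63 and 2.43 against azacytidine. The block gave 91, 1564 and 3738 calls in the 3 comparisons, and rarab in mutants turned to -0.0028. Low signal limits the mutant levels of nr5a5, stra6l and cyp27a1.1, which each had at least 1 mutant array below its 10th percentile. For rxrba and pbx1a 1 control array each was below it, and for rxrba also 1 azacytidine array. For foxg1b 2 controls, all 4 azacytidine arrays and 2 mutants were below it. The rarga levels were dim with azacytidine, at 5.04 to 5.32, and in controls 1, 2 and 8, at 5.30 to 5.71. They lay above the 10th percentile on every array.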
